A study of Mus musculus with 6 samples.

Results

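Fatty acid desaturation and elongation in the liver was described here through 9 genes of the deposited table, picked by name from its 54532 genes: the desaturases Fads1, Fads2, Fads6 and Scd2, the elongases Elovl1, Elovl2, Elovl3 and Elovl5, and the phospholipid-remodelling acyltransferase Lpcat3. All 9 were found and all 9 passed the filter on low values, which is explained below. Liver RNA came from mice that lacked G3bp1 in hepatocytes only (HKO, 3 libraries) and from floxed litter controls (Flox, 3 libraries). Both groups began the high-fat diet at 6 weeks of age and ate it for 12 weeks, so no library shows a liver without that diet. The labels do not name the Cre driver of the deletion, and the other cells of the liver keep the gene. Nor do they tie each library to a separate animal. P-values therefore describe the spread among these samples, part of which may be technical. G3BP1 is an RNA-binding protein of stress granules, and the study asked how it affects steatohepatitis.

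Desaturases of the endoplasmic reticulum place unsaturated bonds into fatty acyl chains, and elongases of the ELOVL family lengthen the chains by adding carbon from malonyl-CoA. Fads2, Elovl5, Fads1 and Elovl2 act in turn on linoleic and alpha-linolenic acid from the diet and yield arachidonic and docosahexaenoic acid. Lpcat3 puts such polyunsaturated chains into lysophosphatidylcholine, which sets the fluidity of membranes and the lipid loading of lipoproteins in hepatocytes. In mouse liver the transcription factor encoded by Srebf1 is a known activator of Fads1, Fads2 and Elovl5.

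Sequences upstream of the transcription start were at hand for 6 of the 9 members in RefSeq's GRCm38.p6 tables. Those of Fads2 and Elovl5, whose levels moved together over the libraries, and of Lpcat3, the member whose groups did not overlap, are shown. Each runs 5′ to 3′ on the strand of its gene and stops before the gene's first base in the deposited table, which cut 77 bases nearest the start from Lpcat3 and 1 base from Elovl5. Capitals mark the letters CCAAT (the CCAAT box), the E-box letters CACGTG and the GC box letters GGGCGG, each searched on both strands. The stretches lie at chr19:10101504-10101753 (minus strand) for Fads2, chr9:77917115-77917363 (plus strand) for Elovl5 and chr6:124662854-124663026 (plus strand) for Lpcat3.
Fads2: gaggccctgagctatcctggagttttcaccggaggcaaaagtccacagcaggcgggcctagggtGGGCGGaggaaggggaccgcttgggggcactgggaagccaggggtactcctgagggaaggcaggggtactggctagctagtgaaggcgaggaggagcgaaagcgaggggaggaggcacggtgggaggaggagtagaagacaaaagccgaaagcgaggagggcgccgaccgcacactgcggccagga
Elovl5: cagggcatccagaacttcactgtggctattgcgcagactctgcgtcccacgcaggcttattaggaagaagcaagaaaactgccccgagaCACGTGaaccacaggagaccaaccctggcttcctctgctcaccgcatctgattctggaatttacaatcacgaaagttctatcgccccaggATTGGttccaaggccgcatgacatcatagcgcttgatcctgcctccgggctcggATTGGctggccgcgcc
Lpcat3: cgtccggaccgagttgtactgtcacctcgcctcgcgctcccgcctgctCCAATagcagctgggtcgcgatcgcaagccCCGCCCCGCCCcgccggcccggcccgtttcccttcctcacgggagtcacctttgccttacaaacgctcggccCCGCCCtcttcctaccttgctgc
In the full 250 bases before the start, Fads2 held 1 GGGCGG and no CCAAT, and Elovl5 held 2 CCAAT and 1 CACGTG. Lpcat3 held 3 CCAAT and 5 GGGCGG, of which 2 GGGCGG share a base. Of all 32851 upstream windows of that length, 33.8% held CCAAT, 6.02% CACGTG and 32.7% GGGCGG. A match or its absence describes these letters in this window only.

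Between 16499832 and 17954066 reads were assigned to genes in HKO libraries, against 15804115 to 16331199 in Flox libraries. Values are FPKM, reads scaled by the length of the gene and by a library factor, so levels can be set beside each other between genes. The library size implied by the values was 0.934 to 1.055 times the assigned reads. It ran in step with median-ratio size factors (0.898 to 1.12), which hold the typical gene level between libraries. G3bp1 stood at 4.66, 4.27 and 4.44 FPKM in HKO livers and at 8.46, 8.46 and 9.10 FPKM in Flox livers. Every HKO library thus lay below every Flox library, in the direction of the labels. Part of the signal remained in HKO, and levels per gene in bulk liver cannot show how complete the deletion in hepatocytes was. All 6 hepatocyte markers were measured in every library, Alb at 25430 to 33879 FPKM in HKO and 28200 to 30474 FPKM in Flox. All 11 Kupffer cell markers had a higher mean in HKO, with summed levels of 222 to 362 FPKM in HKO and 148 to 271 FPKM in Flox. Cd5l was the highest of them, at 46.8 to 87.5 FPKM in HKO and 28.9 to 57.5 FPKM in Flox. All 3 erythroid markers had a lower mean in HKO, with summed levels of 124 to 253 FPKM in HKO and 272 to 308 FPKM in Flox, which did not overlap. Hbb-bs was the highest of these, at 51.0 to 121 FPKM in HKO and 117 to 162 FPKM in Flox. Recruited macrophage markers, led by Lyz2, summed to 80.01 to 98.2 FPKM in HKO and 62.8 to 75.1 FPKM in Flox. Most of that sum was Lyz2, with means of 52.1 FPKM in HKO and 38.9 FPKM in Flox, and Spp1, with 26.5 and 25.3 FPKM, whose groups overlapped. Trem2, Gpnmb and Itgax lay below the filter, with means of 0.199, 0.046 and 0.240 FPKM in HKO and 0.169, 0.036 and 0.233 FPKM in Flox. Ccr2 and Ly6c2 of that list had lower means in HKO, 0.293 and 0.420 FPKM against 0.348 and 0.658 FPKM in Flox. Lymphocyte markers, led by Nkg7, summed to 3.43 to 5.66 FPKM in HKO and 2.68 to 3.41 FPKM in Flox, a narrow gap. Nkg7 itself overlapped, at 1.06 to 1.91 FPKM in HKO and 0.589 to 1.42 FPKM in Flox. The sums overlapped between the groups for sinusoidal endothelial, stellate, cholangiocyte, neutrophil and adipocyte markers, led by Clec4g, Dcn, Sox9, S100a9 and Cfd. The adipocyte marker Adipoq and the neutrophil marker Ly6g were at 0 in all 6 libraries. In bulk tissue, fewer cells of a type and less RNA per cell cannot be told apart.

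No member passed the test between HKO and Flox. Genes entered the test when 3 or more libraries reached 0.5 FPKM. Over these 11856 genes, limma on log2(FPKM + 1) called 0.00843% of genes at an adjusted p under 0.05 (Benjamini-Hochberg), and 0 of the 9 members, whose adjusted p ran from 0.648 to 0.987. At an unadjusted p under 0.05 there was 1 member, Lpcat3, against 7.62% of all genes (4.55% lower and 3.08% higher in HKO). Of the members 6 had a lower mean in HKO and 3 a higher one, beside 51.2% of all genes lower. Their median log2 fold change was -0.18, beside -0.0054 over all genes tested. The scaling of the deposited values, given above, by itself holds the median of all genes near 0 and the share lower near 50%. With assigned reads the medians were -0.10 for the members and 0.05 for all genes. Without HKO 1 the count of lower members was 3, and under other scalings of the libraries (TPM, quantile normalization, assigned reads) it was 5, with Elovl3 above 0. Relative to the median of all genes, which moved to 0.15 with TPM and 0.05 with assigned reads, the count was 6 under both, and 5 with quantile normalization. With 3 libraries in each group, 0.1 is the smallest two-sided p of an exact permutation test.

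**Figure D1:**
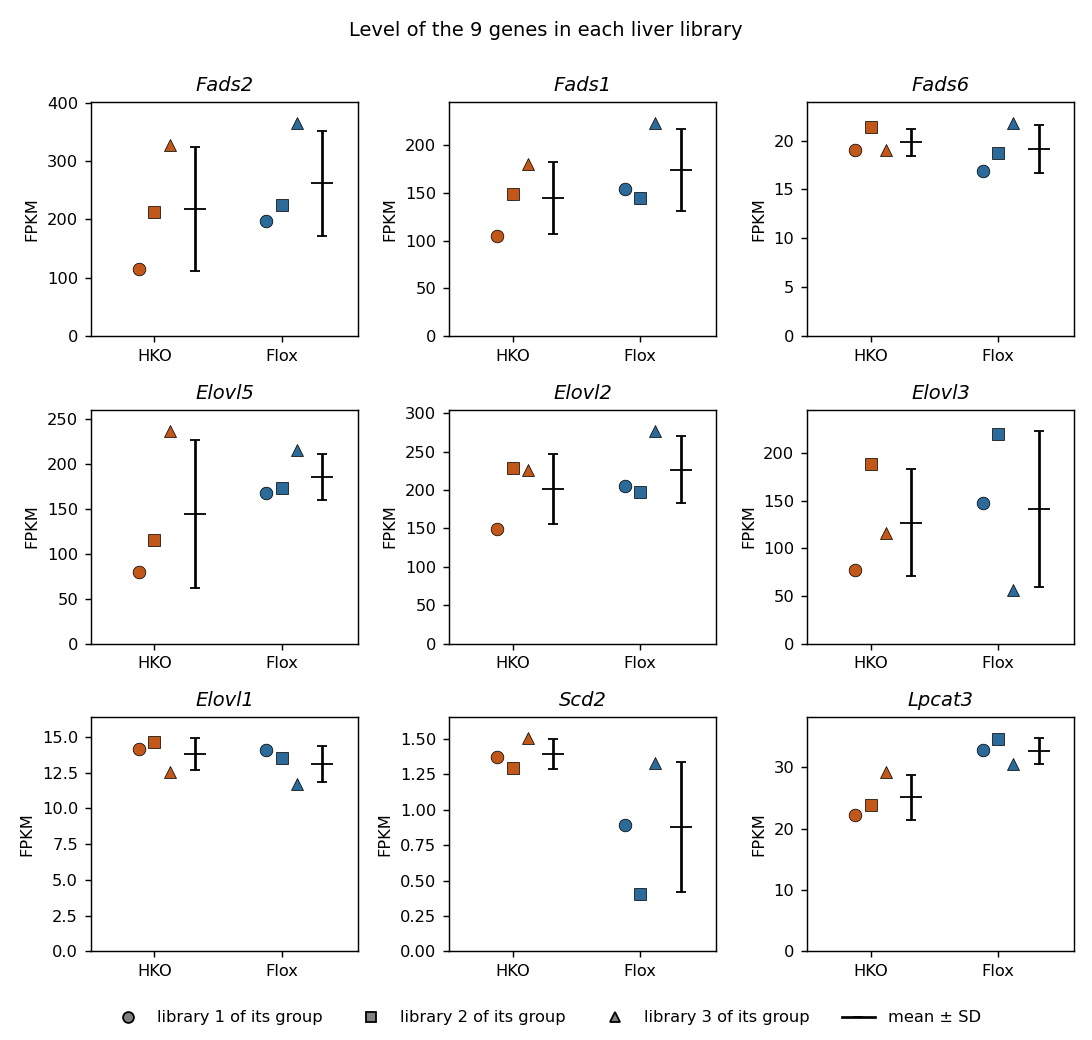
FPKM of the 9 genes (vertical axes from 0) in 3 HKO and 3 Flox livers, with 1 point per library and the mean ± SD beside the points. Lpcat3 is the panel without overlap between the groups, at 22.2 to 29.2 FPKM in HKO and 30.5 to 34.6 FPKM in Flox.

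Lpcat3 (ENSMUSG00000004270, chromosome 6, 124663027 to 124704418, plus strand, GRCm38) was the member whose groups stood apart. It stood at 22.2, 23.9 and 29.2 FPKM in HKO livers and at 32.8, 34.6 and 30.5 FPKM in Flox livers. These values rest on 1288, 1303 and 1772 reads in HKO and 1649, 1677 and 1674 reads in Flox. Every HKO liver lay below every Flox liver, with HKO 3 close to Flox 3. All HKO libraries lay below all Flox libraries in 7.21% of the genes tested, and 1 of the 9 members was among these. All HKO libraries lay above all Flox libraries in 6.06% of genes and in 0 members. In either direction the groups did not overlap in 13.3% of genes, and 1 of the 9 members is near that share. The means were 25.1 ± 3.67 FPKM in HKO and 32.6 ± 2.05 FPKM in Flox (SD, n = 3 each). The log2 fold change was -0.37 (SE 0.129, 95% interval -0.67 to -0.07) with an adjusted p of 0.648 in limma, so the difference did not pass over all genes. The exact two-sided permutation p was 0.1, the smallest that this design allows. Of the spread of its log2 level over the 6 libraries, 68.8% lay between the groups, against a median of 17.7% over all genes tested. Groups that do not overlap raise that share by themselves. The fold change stayed negative under every alternative run, at -0.48 to -0.20. Because the groups did not overlap, leaving out 1 library could not turn its sign. Of the exon bases of Lpcat3, 10.2% are shared with Emg1 on the other strand, and the library kit does not mark strand. Emg1 stood at 10.6 ± 1.64 FPKM in HKO and 10.2 ± 1.36 FPKM in Flox, with a log2 fold change of 0.05. The summed erythroid, recruited macrophage and, narrowly, lymphocyte markers, given above, also stood apart between the groups, though not every marker did. Their part in the result was not tested.

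Other acyltransferases that load glycerophospholipids did not show a shift of that size. Of 13 listed, 8 were tested and 0 passed, with 3 lower and 5 higher in HKO and a median log2 fold change of 0.04. Agpat1, which makes phosphatidic acid, stood at 2.76 ± 0.172 FPKM in HKO and 2.41 ± 0.386 FPKM in Flox. Lclat1, a lysocardiolipin acyltransferase, stood at 10.4 ± 1.83 and 9.26 ± 0.467 FPKM in HKO and Flox, and Lpgat1 at 26.0 ± 2.80 and 24.3 ± 3.43 FPKM. Lpcat2, the family member of inflammatory cells, was near the filter at 0.625 ± 0.128 FPKM in HKO and 0.555 ± 0.104 FPKM in Flox. Lpcat3 was thus the most abundant Lpcat transcript in these livers, since Lpcat1 and Lpcat4 averaged under 0.5 FPKM in both groups. Its difference from the other acyltransferases was not tested.

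Fads2 and Fads1, the polyunsaturated fatty acid desaturases, had lower means in HKO but varied as much within a group as between groups. Fads2 (ENSMUSG00000024665, chromosome 19, 10064164 to 10101503, minus strand) catalyses the entry step of the pathway. It stood at 115, 213 and 327 FPKM in HKO livers and at 196, 224 and 365 FPKM in Flox livers. HKO 1 was the lowest and Flox 3 the highest library, and the groups overlapped over most of their range. The log2 fold change was -0.33 (SE 0.408, 95% interval -1.30 to 0.64), with an adjusted p of 0.814 in limma. It was 0.065 without HKO 1 and -0.69 without HKO 3.

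Fads1 (ENSMUSG00000010663, chromosome 19, 10182888 to 10196870, plus strand) makes arachidonic acid from its precursor. It stood at 105, 149 and 180.2 FPKM in HKO livers and at 154, 144 and 223 FPKM in Flox livers. The order was again HKO 1 lowest and Flox 3 highest, with a log2 fold change of -0.27 (SE 0.246, adjusted p = 0.762 in limma). Both genes had means 16.6% lower in HKO. The fold change of Fads1 was -0.06 without HKO 1 and -0.07 without Flox 3. Fads2 transcripts stood at 1.09, 1.42 and 1.82 times those of Fads1 in HKO livers and at 1.28, 1.55 and 1.63 times in Flox livers, so the ratio was highest in HKO 3 and lowest in HKO 1.

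Their relative Fads3, whose start lies in the same cluster of chromosome 19, was far less abundant, at 1.74, 2.62 and 5.11 FPKM in HKO livers and 2.97, 2.27 and 3.97 FPKM in Flox livers. Fads3 and Fads2 lie 4492 bases apart and Fads2 and Fads1 81384 bases apart in the deposited coordinates. In all, 4 of the 9 members are on chromosome 19, where Scd2 sits among the other Scd genes and Elovl3 lies 1724187 bases beyond Scd1. Fads6 (ENSMUSG00000044788, chromosome 11, 115279622 to 115297663, minus strand), a desaturase-domain gene, stayed within a narrow band. It stood at 18.9995, 21.4 and 19.1 FPKM in HKO livers and at 16.9, 18.7 and 21.8 FPKM in Flox livers. Its log2 fold change was 0.05 (95% interval -0.23 to 0.34, adjusted p = 0.902 in limma) and -0.028 without Flox 1.

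Elovl5 and Elovl2 lengthen polyunsaturated chains and were the most abundant elongases together with Elovl3. Elovl5 (ENSMUSG00000032349, chromosome 9, 77917364 to 77984519, plus strand) acts on the products of Fads2. It stood at 79.9, 116 and 237 FPKM in HKO livers and at 168, 174 and 215 FPKM in Flox livers. HKO 1 and HKO 2 lay below all Flox livers and HKO 3 above them, so that the HKO range enclosed the Flox range. The means were 144 ± 82.3 FPKM in HKO and 185 ± 25.9 FPKM in Flox, with a log2 fold change of -0.50 (SE 0.375, 95% interval -1.39 to 0.39, adjusted p = 0.729 in limma). It was -0.93 without HKO 3 and -0.15 without HKO 1.

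Elovl2 (ENSMUSG00000021364, chromosome 13, 41182381 to 41220405, minus strand) makes the longest precursors of docosahexaenoic acid. It stood at 149, 229 and 226 FPKM in HKO livers and at 205, 197 and 277 FPKM in Flox livers. HKO 1 was lowest and Flox 3 highest, and the other 4 libraries lay between 197 and 229 FPKM. The log2 fold change was -0.18 (SE 0.217, adjusted p = 0.813 in limma) and 0.025 without HKO 1. Elovl2 stood at 1.86, 1.98 and 0.955 times the level of Elovl5 in HKO livers and at 1.22, 1.13 and 1.29 times in Flox livers. This ratio was higher in HKO 1 and HKO 2 than in all Flox livers and lower in HKO 3, while the Flox livers lay close together.

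Elovl3 (ENSMUSG00000038754, chromosome 19, 46131897 to 46135307, plus strand), which lengthens saturated and monounsaturated chains and is known to follow the circadian clock in mouse liver, varied most of all members. It stood at 76.98, 188 and 116 FPKM in HKO livers and at 148, 220.1 and 56.5 FPKM in Flox livers. Flox 3, where Fads1, Fads2 and Elovl2 were highest, was its lowest library, and the groups overlapped fully. The log2 fold change was -0.04 (SE 0.545, 95% interval -1.35 to 1.26, adjusted p = 0.987 in limma). It turned positive with TPM (0.13), with quantile normalization (0.10) and when scaled to assigned reads (0.034). Relative to the median of all genes it was -0.012 with TPM, -0.018 with assigned reads and 0.083 with quantile normalization. It was -0.60 to 0.37 with 1 library left out. Clock genes differed between the libraries too, and in more than one direction. Arntl, a core clock activator, stood at 0.577, 1.51 and 0.645 FPKM in HKO livers and 1.116, 1.15 and 0.419 FPKM in Flox livers, and Cry1, a clock repressor, at 2.18, 5.72 and 2.62 FPKM in HKO and 4.05, 5.52 and 2.87 FPKM in Flox. Per1, another clock repressor, ran the other way, at 2.87, 0.777 and 2.31 FPKM in HKO and 1.66, 0.706 and 2.39 FPKM in Flox. Dbp, a clock output gene, was lowest in HKO 2 and highest in Flox 3, and Nr1d1 and Clock followed neither course. The clock genes named here were chosen after their values were seen, out of 14 listed. Of the 12 tested, 0 passed between groups, with 6 lower and 6 higher. HKO 1, HKO 3 and Flox 3 were the lowest libraries for Elovl3, Arntl and Cry1 and the highest for Per1. These clock genes were picked with that split in view, and the share of all genes with it was not counted. The match therefore only describes the genes named. The labels do not give the hour at which livers were taken, and the part of the clock in the result was not tested.

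Elovl1 (ENSMUSG00000006390, chromosome 4, 118428093 to 118432953, plus strand), which makes very long saturated chains for sphingolipids, was the steadiest member. It stood at 14.1, 14.7 and 12.5 FPKM in HKO livers and at 14.1, 13.5 and 11.7 FPKM in Flox livers, with a log2 fold change of 0.07 (95% interval -0.19 to 0.33, adjusted p = 0.862 in limma). The direction turned without Flox 3, at -0.0043. Elovl2 held 41.1 ± 4.73% of all elongase FPKM in HKO and 39.4 ± 7.77% in Flox, and Elovl5 27.8 ± 9.10% and 32.2 ± 4.39% in HKO and Flox. Elovl3 held 18.6% to 33.7% in HKO livers and 9.73% to 36.1% in Flox livers. Elovl6, which lengthens newly made palmitic acid, held 4.82% in HKO 3 and 3.46% in Flox 3, and at most 1.79% in the other livers.

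**Figure D2:**
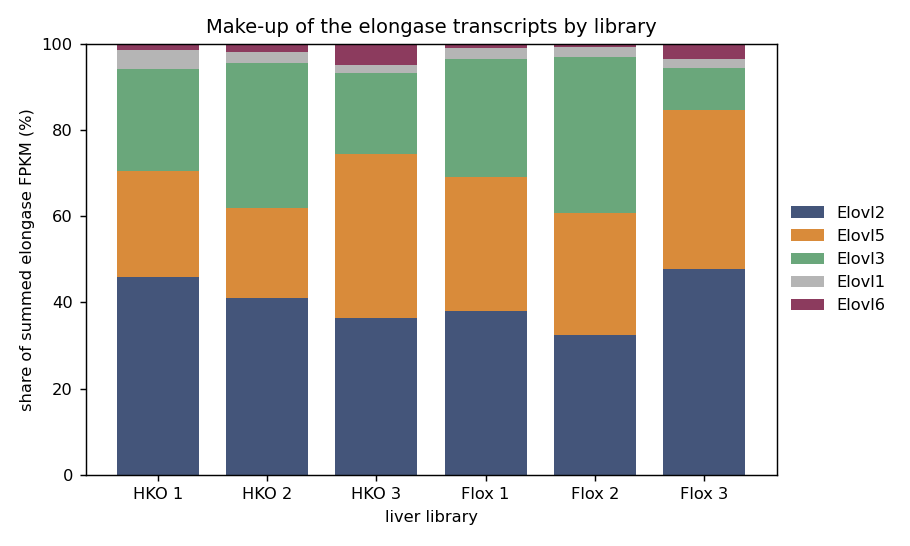
Share of the summed FPKM of the elongase genes (vertical axis, percent) held by Elovl2, Elovl5, Elovl3, Elovl1 and Elovl6 in each HKO and Flox library; Elovl4 and Elovl7 are too low to draw. Elovl3 takes 9.73% in Flox 3 and 36.1% in Flox 2, and Elovl5 takes 20.8% in HKO 2 and 38.1% in HKO 3.

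Scd2 (ENSMUSG00000025203, chromosome 19, 44293676 to 44306864, plus strand), a stearoyl-CoA desaturase mainly used outside the adult liver, was the least abundant member. It stood at 1.38, 1.30 and 1.503 FPKM in HKO livers and at 0.895, 0.408 and 1.33 FPKM in Flox livers. That came to 133, 118 and 152 reads in HKO and 75, 33 and 122 reads in Flox. Only Flox 3 reached the HKO range, lying above HKO 2. The means were 1.39 ± 0.104 FPKM in HKO and 0.878 ± 0.462 FPKM in Flox, with a log2 fold change of 0.38 on the log2(FPKM + 1) scale (SE 0.181, 95% interval -0.05 to 0.80, adjusted p = 0.667 in limma). At this low level that scale understates the difference, and limma's voom on reads recovered from the FPKM gave 0.79 (adjusted p = 0.638). It was 0.19 without Flox 2 and 0.55 without Flox 3. Kupffer cell markers shared a part of its course. The summed marker level was 362, 222 and 274 FPKM in HKO livers and 148, 169 and 271 FPKM in Flox livers, with Flox 3 again above HKO 2. That sum was highest in HKO 1 and lowest in Flox 1, whereas Scd2 was highest in HKO 3 and lowest in Flox 2. The part of these markers in the result was not tested. Scd1, the liver's main stearoyl-CoA desaturase, stood at 153, 194 and 1587 FPKM in HKO and 445, 241 and 1478 FPKM in Flox. The transcripts of Scd2 and Scd1 match at 88.0% over 21.9% of the length of Scd2, and no member had a copy of at least 97% identity over 80% of its length.

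**Figure D3:**
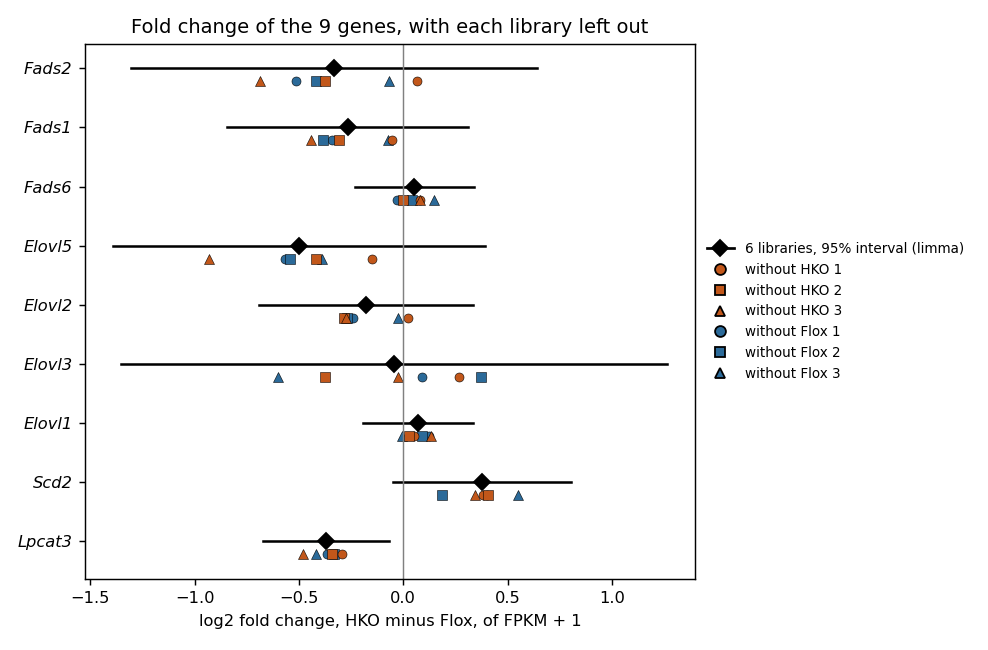
Log2 fold change of FPKM + 1, HKO minus Flox (horizontal axis), for each of the 9 genes: diamonds with bars are the limma estimate and its 95% interval, and coloured symbols are the estimate with 1 library left out. Intervals of 8 genes span 0, and that of Lpcat3 runs from -0.67 to -0.07.

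The members fell into sets by their course over the 6 libraries. HKO 1 was the lowest library for 5 of the 9, namely Fads1, Fads2, Elovl2, Elovl5 and Lpcat3, against 17.7% of all genes. HKO 3 and Flox 3 were the highest libraries for 3, namely Fads1, Fads2 and Elovl5, against 6.83% of all genes. Likeness was measured as the root mean square difference of centred log2 levels over the 6 libraries, where 0 is an identical course. Fads1 and Elovl2 were the closest members (0.102), and Fads2 with Elovl3 the farthest (0.924). Among 9029 annotated genes that averaged at least 1 FPKM, predicted genes and pseudogenes left out, Fads2 was closest to Srebf1 (0.173), Acss2 (0.184), Pstpip2 (0.192), G6pc (0.204) and Elovl5 (0.221). Elovl5 was closest to Papss2 (0.181), Aqp8 (0.184), Srebf1 (0.197), Snord91a (0.215) and Fads2 (0.221). Elovl3 was closest to Hist1h4h (0.168), mt-Tm (0.279), Tubb2a (0.287), Nr0b2 (0.310) and Efna1 (0.318). With 6 libraries such likeness is a description only.

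Srebf1 stood at 63.3, 85.6 and 170 FPKM in HKO livers and at 109, 96.7 and 183 FPKM in Flox livers, with HKO 3 and Flox 3 high in the same way as for Fads2. Its log2 fold change was -0.35 (SE 0.400, adjusted p = 0.800 in limma). Insig2, which holds the precursor of that factor in the endoplasmic reticulum, stood at 52.4, 90.9 and 101 FPKM in HKO and 107, 134 and 64.0 FPKM in Flox. Elovl6 stood at 4.52, 9.97 and 30.0 FPKM in HKO and 4.62, 4.67 and 20.1 FPKM in Flox. Between the library with the lowest and the one with the highest level, Fads2 differed 3.18 times and Fads1 2.12 times, and Elovl1 1.26 times. The Scd1 level was 1.33, 0.912 and 4.85 times that of Fads2 in HKO livers and 2.27, 1.08 and 4.05 times in Flox livers, so Scd1 differed more between livers than Fads2.

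**Figure D4:**
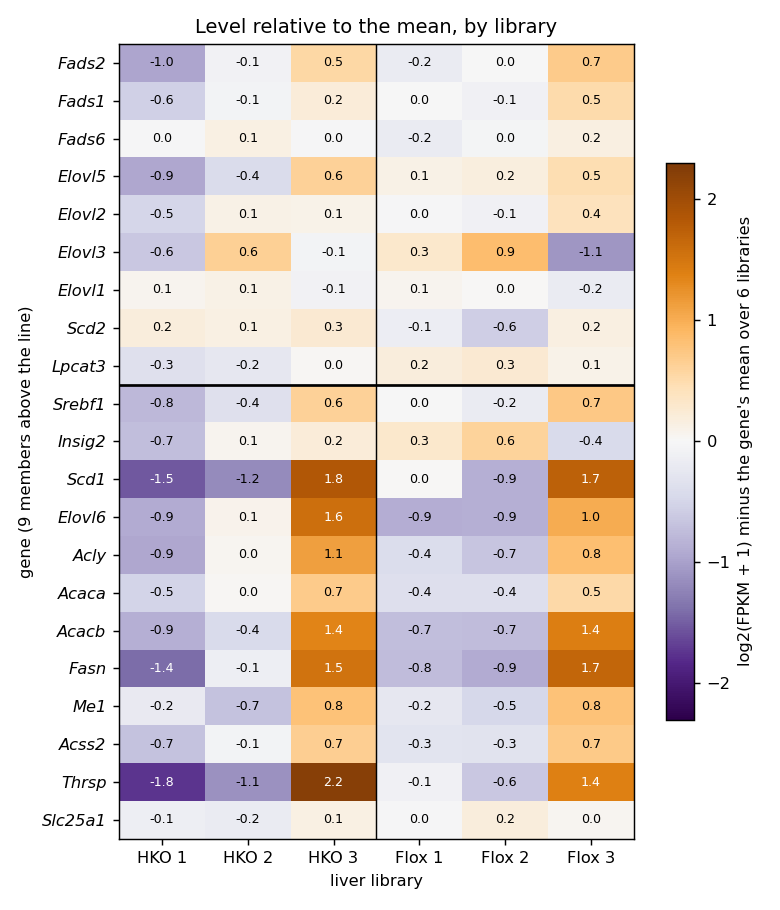
Log2(FPKM + 1) minus the gene's mean over the 6 libraries (colour and printed values) for the 9 genes above the line and for Srebf1, Insig2, Scd1, Elovl6 and fatty acid synthesis genes below it, with HKO libraries left of Flox libraries. Fads1, Fads2 and Elovl5 are high in HKO 3 and Flox 3 and low in HKO 1, and fatty acid synthesis genes such as Thrsp and Acly are likewise high in HKO 3 and Flox 3, while Elovl3 is lowest in Flox 3.

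Of 10 genes of the elongation cycle and of electron supply, 9 were tested and 0 passed, with 5 lower and 4 higher in HKO and a median log2 fold change of -0.04. Cyb5a, a cytochrome that passes electrons to stearoyl-CoA desaturases, stood at 403, 387 and 343 FPKM in HKO livers and at 565, 542 and 396 FPKM in Flox livers. Its groups overlapped by HKO 1, which lay just above Flox 3 (log2 fold change -0.39, adjusted p = 0.651 in limma). Cyb5r3, its reductase, stood at 98.3 ± 22.4 FPKM in HKO and 120 ± 11.5 FPKM in Flox. Cyb5b, the cytochrome of the outer mitochondrial membrane, had a higher mean, at 127 ± 20.96 FPKM in HKO and 113 ± 13.5 FPKM in Flox (log2 fold change 0.16, adjusted p = 0.775 in limma). Hsd17b12, the ketoreductase of the elongation cycle, stood at 73.4 ± 13.1 FPKM in HKO and 80.2 ± 4.38 FPKM in Flox, a log2 fold change of -0.14.

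Genes that activate fatty acids or shorten very long chains in peroxisomes, the last step towards docosahexaenoic acid, had mostly lower means. Of 12 tested, 9 were lower and 3 higher, with a median log2 fold change of -0.28, and 0 passed. In 4 of them all HKO livers lay below all Flox livers, beside 7.21% of all genes. Hsd17b4, a bifunctional enzyme of peroxisomal chain shortening, stood at 121 ± 3.81 FPKM in HKO and 155 ± 19.7 FPKM in Flox (adjusted p = 0.648 in limma). Acot8, a peroxisomal thioesterase, stood at 5.98 ± 0.409 and 8.48 ± 1.79 FPKM, and Acsl1, a fatty acyl-CoA synthetase, at 78.3 ± 9.62 and 99.6 ± 13.2 FPKM in HKO and Flox.

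Of 18 regulators of desaturation and membrane saturation, all tested, 11 were lower and 7 higher (median log2 fold change -0.04), and 0 passed. Rxra, the partner receptor of LXR and PPAR, stood at 104 ± 11.4 FPKM in HKO and 82.0 ± 9.18 FPKM in Flox (adjusted p = 0.648 in limma). Mlxipl, which encodes the carbohydrate-responsive factor ChREBP, stood at 19.9, 22.3 and 23.7 FPKM in HKO and 23.9, 27.7 and 27.0 FPKM in Flox (adjusted p = 0.667 in limma). All HKO livers lay above all Flox livers for Rxra, as in 6.06% of all genes tested. They lay below for Mlxipl, as in 7.21%, with HKO 3 next to Flox 1. Tlcd2, a regulator of membrane fluidity, stood at 44.6, 68.6 and 84.3 FPKM in HKO and 88.1, 107 and 71.4 FPKM in Flox. Of 8 fatty acid synthesis genes 5 were lower and 3 higher, with a median of -0.04. Of 7 further desaturases and elongases only Fads3, Scd1 and Elovl6 were tested, and 0 passed.

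**Figure D5:**
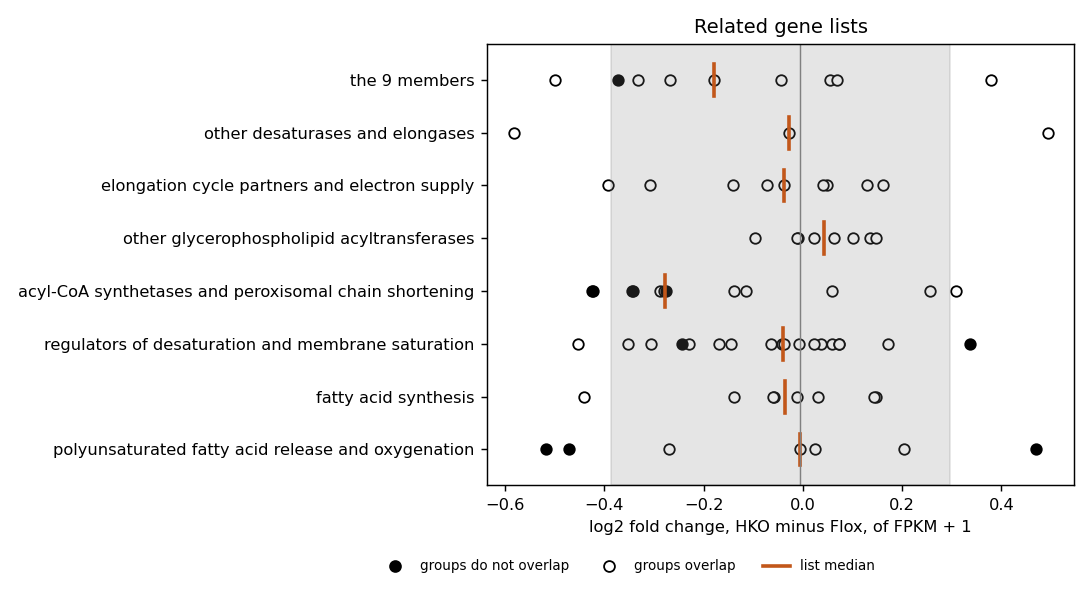
Log2 fold change of FPKM + 1, HKO minus Flox (horizontal axis), of each tested gene in the 9 members and 7 related lists. Filled points are genes whose HKO and Flox libraries do not overlap, orange bars are list medians, and the grey band holds the middle of all tested genes between their quantiles of 5% and 95% (-0.39 to 0.30). The list of acyl-CoA synthetases and peroxisomal chain shortening has the lowest median, -0.28.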

How the data were processed

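Total liver RNA (1.3 µg per sample, NEBNext Ultra kit, which does not mark strand) was sequenced, per the labels' protocols. The authors deposited FPKM per gene and library, with replicates not pooled, and a gene length. The submitters' processing notes name the builds GRCm38 and mm10. The aligner, counter and annotation are not stated in them. FPKM times gene length came in whole multiples of 1 step per library, within 0.02 for 100% of values above 0, which gave the reads. For a gene length of 1 kb, a level of 1 FPKM equals 14.9 to 18.5 reads, which sets the counting precision.

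Log2(FPKM + 1) was compared by limma 3.58.1 (R 4.3.3, trend, robust, statmod 1.5.0), two-sided, for genes that reached 0.5 FPKM in 3 or more libraries, at an adjusted p of 0.05. The code was tested on simulated data. Exact permutation tests used scipy 1.17.1. Overlaps and copies came from GENCODE M21 (blastn 2.17.0). Sequences came from RefSeq (GRCm38.p6). Alternatives were other pseudocounts, filters and scalings, voom, a replicate block and leaving out each library. The members and lists were chosen with earlier results of these data known. Named are the members, G3bp1, Srebf1, Scd1, Elovl6, Insig2, up to 4 genes of smallest p per list, the 5 closest courses for the 3 members of widest range, and per marker list the highest gene and those at 0. The clock genes were named after their values were seen. A gene that this rule names is not reported here. Deviations of same-numbered libraries were weakly correlated over the genes tested, which does not decide pairing for single genes.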

Additional observations from a re-analysis of the deposited data

How the results depend on the processing

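Of the 9 members, 0 passed the threshold under any alternative run, and the lowest adjusted p in limma was 0.252, for Scd2 without Flox 3. Over all genes, 1 passed as lower and 0 as higher. At an unadjusted p under 0.05 limma gave 904 genes in either direction, and voom 919. The lower count was 0 with no filter, 2 with a mean of at least 5 FPKM, 0 with the replicate block and 3 with voom on recovered reads, chosen after seeing the data. It was 0 to 12 with 1 library left out, and the higher count was 0 to 1. The highest counts came without HKO 1. The number of members lower in HKO was 3 to 7 with 1 library left out. The fold changes of Fads1, Elovl5, Scd2 and Lpcat3 kept their sign throughout, with Scd2 not tested at a mean of at least 5 FPKM. For Lpcat3, whose groups did not overlap, leaving out 1 library could not turn the sign. With 1 library left out the log2 fold change ranged from -0.69 to 0.065 for Fads2, -0.028 to 0.15 for Fads6, -0.0043 to 0.13 for Elovl1, -0.28 to 0.025 for Elovl2, -0.60 to 0.37 for Elovl3, -1.65 to 0.14 for Scd1, -0.17 to 1.13 for Elovl6 and -0.35 to 0.23 for Fads3. It ranged from -0.24 to 0.012 for Hsd17b12, -1.66 to 0.33 for Thrsp, -0.17 to 0.44 for Acaca and -0.37 to 0.65 for Acly. Under TPM, which moved the median of all genes to 0.15, Elovl3 stood at 0.13, Fads3 at 0.11, Hsd17b12 at 0.036 and Slc25a1 at 0.039, and 6 members were lower relative to that median, as after scaling by assigned reads. With quantile normalization Elovl3 stood at 0.10. After scaling by assigned reads, also chosen after seeing the data, Elovl3 stood at 0.034 and Fads3 at 0.027. G3bp1 passed with voom (adjusted p = 0.037) and not in limma on FPKM (0.110). The cause was not tested. Over the genes tested, the correlation of deviations between same-numbered HKO and Flox libraries was 0.0215, 0.0150 and 0.0704. It covers these genes together and does not decide pairing for single genes. With the replicate block the SE fell for most members, from 0.408 to 0.184 for Fads2 and from 0.375 to 0.244 for Elovl5. The SE rose from 0.121 to 0.128 for Fads6 and from 0.129 to 0.143 for Lpcat3. The replicate block changed no member's call. The planned edgeR and DESeq2 fits were not run, although reads could be recovered. The deposited unit is FPKM, and voom on the recovered reads took their place. Scd2 has the fewest reads of the members, 33 to 152 per library.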

Other observations

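Genes that release or oxygenate polyunsaturated fatty acids, the use made of the pathway's products, held 0 genes past the threshold among 7 tested of 13 listed (4 lower, 3 higher, median log2 fold change -0.0049). Pla2g6, a calcium-independent phospholipase, stood at 4.99, 4.34 and 4.57 FPKM in HKO livers and at 5.89, 7.97 and 6.69 FPKM in Flox livers. Ephx2, the soluble epoxide hydrolase, stood at 279, 304 and 325 FPKM in HKO and 463, 482 and 363 FPKM in Flox. For both genes the groups did not overlap, as in 7.21% of all genes, and the adjusted p was 0.580 and 0.632 in limma. Ptgs1, a cyclooxygenase, stood at 3.40, 3.55 and 3.25 FPKM in HKO and 1.89, 1.61 and 3.23 FPKM in Flox. All HKO livers lay above all Flox livers for Ptgs1, as in 6.06% of all genes, with Flox 3 next to HKO 3 (adjusted p = 0.648 in limma). Summed Kupffer cell markers were also highest in Flox 3 among Flox livers, at 222 to 362 FPKM in HKO and 148 to 271 FPKM in Flox, and their part was not tested. The lipoxygenase genes Alox5, Alox12 and Alox15 lay below the filter.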
